A study of Mus musculus with 4 samples.

Results

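Liver-only Pol II regions inside genes are stretches of at least 750 bp and under 10 kb that were called as bound by RNA polymerase II (Pol II) in the liver, that overlap no region called in the heart, the kidney or the lung, and that overlap the annotated span of at least 1 protein-coding gene. They were selected on the measured regions themselves: of 61956 liver regions, 61948 lay on chromosomes 1 to 19 and X, 32345 of those were in that length class, and 23887 of those overlapped a gene. Of the 23887, 19199 overlapped a region of another organ by at least 1 bp and 4688 did not. The 4688, or 19.6%, are described here, and the 4 organ lists hold 333094 regions in all. They lay in 2206 of 21627 protein-coding genes, or 10.2%, and 490 genes, or 2.27%, held at least 3 of them. Because the rule used the overlap with the other organs, the absence of other organs at these regions is no finding and carries no test.

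Livers, hearts, kidneys and lungs were taken from 2 C57BL/6 mice, flash frozen, crosslinked and sheared side by side in a 96-well plate with the ultrasound instrument PIXUL. Polymerase-bound DNA was precipitated with 4H8, an antibody to the repeated tail (C-terminal domain) of the polymerase's largest subunit, and sequenced. The groups are the 4 organs, which share strain and antibody and carry no labelled treatment or allele. The sources used here give neither the age and sex of the animals nor whether a list pools both. With 1 list of regions per organ there are no replicates, and differences between organs carry no test. Behind the lists stood 20058183 tags in the liver, 9880184 in the heart, 16589890.5 in the kidney and 13296938 in the lung. A tag is a sequenced fragment end placed on the genome, and the authors scaled the tag counts of regions to 10000000 tags per list. A gene without a region in a list was not called there, and polymerase below the threshold is possible. In whole organs, fewer cells of a type and less polymerase per cell cannot be told apart.

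Pol II transcribes protein-coding genes. It assembles at the start of transcription, often pauses shortly after it, and then travels through the body of the gene to beyond its 3′ end, so chromatin immunoprecipitation finds it both at starts and along genes being read. In strongly transcribed genes the signal is continuous and is called as 1 long region. Where it is sparser it is called as separate short stretches. The liver is built mainly of hepatocytes, which make plasma proteins, bile acids and glucose and break down drugs, steroids and amino acids. All 10 hepatocyte markers examined, among them Alb, Apob, Cps1 and Hnf4a, had at least 50% of their span inside liver regions, against 0 of 10 in the heart, 1 in the kidney and 0 in the lung. None of the 10 held a liver-only region of the length described here. In the liver list 0 of 5 Kupffer cell markers, 0 of 5 stellate cell markers and 0 of 5 cholangiocyte markers were covered to that extent, and 2 of 5 markers of sinusoidal endothelium. So were 0 of 5 cardiomyocyte and 0 of 5 proximal tubule markers, and 3 alveolar markers of the lung (Sftpc, Ager and Hopx), whose part in the results was not tested.

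A start of transcription was overlapped by 119 of the 4688 regions. The promoters of 5 genes at such starts are shown as examples: 3 with a liver-only start alone, and 2 beside another start of the same gene. Each is 300 bases, 250 before the start and 50 from it on, from RefSeq on GRCm38.p6, the assembly behind mm10. Of the 2206 genes, 1750 matched an entry with a strand in the promoter table. Capitals mark a TATA-like match (TATAAA) or a FOXA-like match (TGTTTAC), on either strand. Apoh encodes a plasma glycoprotein that binds phospholipids, and its promoter lies at chr11:108395047-108395346 on the + strand. Cyp2c39 encodes a cytochrome P450, with its promoter at chr19:39347096-39347395 on the + strand. Ren1 encodes renin, the protease that starts the angiotensin cascade, with its promoter at chr1:133350424-133350723 on the + strand.
Apoh: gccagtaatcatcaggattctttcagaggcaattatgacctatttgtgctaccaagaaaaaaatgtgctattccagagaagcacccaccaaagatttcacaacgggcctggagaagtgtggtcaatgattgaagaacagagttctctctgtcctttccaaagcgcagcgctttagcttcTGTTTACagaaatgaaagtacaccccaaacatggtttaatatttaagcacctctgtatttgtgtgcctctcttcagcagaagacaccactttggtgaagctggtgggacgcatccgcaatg
Cyp2c39: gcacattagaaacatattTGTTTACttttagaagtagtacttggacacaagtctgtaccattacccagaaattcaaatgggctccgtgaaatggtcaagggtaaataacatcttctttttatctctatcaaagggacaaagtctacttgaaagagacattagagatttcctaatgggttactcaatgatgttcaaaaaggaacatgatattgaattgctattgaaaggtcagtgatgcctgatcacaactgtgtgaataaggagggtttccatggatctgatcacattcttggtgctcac
Ren1: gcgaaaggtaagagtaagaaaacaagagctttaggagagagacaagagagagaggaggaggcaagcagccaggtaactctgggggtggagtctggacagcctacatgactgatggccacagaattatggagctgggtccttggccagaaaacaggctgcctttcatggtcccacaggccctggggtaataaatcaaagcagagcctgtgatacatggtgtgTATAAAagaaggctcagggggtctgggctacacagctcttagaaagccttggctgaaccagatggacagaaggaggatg
Dmd and Dpy30 have several annotated starts each, of which 1 lay in a liver-only region and another in a region of another organ. Dmd encodes dystrophin, the protein that ties the muscle cytoskeleton to the membrane, and is known to make short products from promoters inside the gene. Its liver-only start lies at chrX:85048045-85048344 on the + strand, near the 3′ end, and the start with a heart region at chrX:82948620-82948919 on the + strand. Dpy30 encodes a subunit of histone H3 lysine methyltransferase complexes. Its liver-only start lies at chr17:74323895-74324194 on the - strand, and a start with kidney and lung regions at chr17:74316384-74316683 on the - strand.
Dmd, liver-only start: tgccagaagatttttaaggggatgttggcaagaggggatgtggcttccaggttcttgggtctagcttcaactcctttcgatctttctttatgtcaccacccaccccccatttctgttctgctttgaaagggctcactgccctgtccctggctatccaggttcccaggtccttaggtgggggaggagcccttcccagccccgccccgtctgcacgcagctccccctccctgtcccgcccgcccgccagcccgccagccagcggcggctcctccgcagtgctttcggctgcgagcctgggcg
Dmd, heart start: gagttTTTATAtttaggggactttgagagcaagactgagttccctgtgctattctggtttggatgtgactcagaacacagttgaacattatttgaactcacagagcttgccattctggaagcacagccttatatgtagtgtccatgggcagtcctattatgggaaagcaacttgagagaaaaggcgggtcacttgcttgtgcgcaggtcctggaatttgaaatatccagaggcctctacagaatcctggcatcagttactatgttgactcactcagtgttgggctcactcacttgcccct
Dpy30, liver-only start: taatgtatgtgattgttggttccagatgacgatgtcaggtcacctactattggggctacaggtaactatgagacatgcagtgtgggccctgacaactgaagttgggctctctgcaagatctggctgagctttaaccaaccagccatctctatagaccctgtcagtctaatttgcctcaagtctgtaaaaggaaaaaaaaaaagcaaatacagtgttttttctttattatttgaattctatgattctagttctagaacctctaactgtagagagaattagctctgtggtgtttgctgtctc
Dpy30, shared start: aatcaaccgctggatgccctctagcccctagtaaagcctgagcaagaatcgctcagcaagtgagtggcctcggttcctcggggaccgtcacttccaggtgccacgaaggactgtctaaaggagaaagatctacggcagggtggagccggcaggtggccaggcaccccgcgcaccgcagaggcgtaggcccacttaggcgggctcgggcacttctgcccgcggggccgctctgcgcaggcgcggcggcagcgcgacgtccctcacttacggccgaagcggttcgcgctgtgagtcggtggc
The pairs differ in CpG content, in opposite directions. The Dmd window held 14 CG dinucleotides at the liver-only start and 2 at the heart start. The Dpy30 window held 1 CG at the liver-only start and 30 at the shared start. Across starts at least 300 bases apart, the median was 7 CG per 300 bases at 121 starts in liver-only regions, against 21.0 at 8354 starts where a liver region met a region of another organ and 13 at all 19881 starts. The GC box GGGCGG, searched on both strands like the other motifs, was in 27.3% of the liver-only starts (95% Clopper-Pearson interval 19.6% to 36.1%), against 64.4% of the shared starts and 46.2% of all starts. TATAAA was in 11.6% of the liver-only starts, against 6.97% of the shared starts and 12.9% of all starts. TGTTTAC was in 7 of the 121, or 5.79% (2.36% to 11.6%), against 2.57% of the shared starts and 3.0% of all starts. The letters CAAAGTCCA (HNF4-like) were in 1 of the 121, and neither TTGCGCAA (C/EBP-like) nor GTTAATNAT (HNF1-like) was in any, which allows up to 3.0%. At all starts these 3 stood in 0.463%, 0.211% and 0.754%. The intervals cover counting error only, and a match in a window is a description, not a bound site.

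The 4688 regions were shorter than the shared ones, at a similar density of tags. Their median length was 1359 bp (quartiles 921.0 and 2205), against 2057 bp (1230 and 3950) for the 19199 liver regions of the same length class that overlapped another organ. Their median tag count was 19.7 per region, with a range of 7.73 to 585.0, against 31.9 for the shared regions. Tags per kb were close to each other, with a median of 15.1 in liver-only and 15.7 in shared regions, so the lower count went with the shorter length. The caller's score had a median of 15.5 in both sets. It was close to the raw tag count in liver regions of 500 bp (median ratio of tags to score 0.97). In longer regions it did not follow tag density. The region at the start of Apoh had 585.0 tags over 7.84 kb and a score of 15.0.

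The liver list was the deepest, and this bears on what could be called liver-only. The authors' tag threshold of a window, per 10000000 tags, was 6.98 in the liver, 9.11 in the heart, 7.23 in the kidney and 8.27 in the lung. Of the 4688 regions, 625 (13.3%) had a score that reached the heart's threshold on that scale, 3113 (66.4%) the kidney's and 1283 (27.4%) the lung's. In the liver regions shared with another organ the shares were 14.4%, 69.2% and 29.2%. The score of a longer region is not the density of its densest window. These shares therefore do not show which regions another organ's threshold would have called. The part of depth in any single absence was not tested.

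Both length limits cut through a continuum. The 79 regions less than 10 bp above the lower limit had a median of 10.7 tags and the 48 liver-only regions up to 10 bp below it had 10.2. The 25 regions within 1 kb below the upper limit had a median of 200 tags and the 22 liver-only regions less than 1 kb above it had 235. In genes, 7290 liver-only regions were shorter than 750 bp and 181 were 10 kb or longer. A further 3288 liver-only regions of the class lay between genes.

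The regions were unevenly spread over genes. The 924 genes with at least 2 held 73.7% of them, the 490 with at least 3 held 55.3%, the 35 with at least 10 held 13.4%, and the 6 with at least 20 held 249 regions, or 5.31%. A region in overlapping genes was counted in each, which applied to 71 of the 4688. Neighbouring regions were close: 69.4% had another liver region within 2 kb and 83.8% within 5 kb, against 75.6% and 87.4% of the shared regions.

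Dpyd held by far the most. This gene encodes dihydropyrimidine dehydrogenase, which carries out the first step in the breakdown of uracil and thymine and also inactivates fluorouracil. It spans 871 kb at chr3:118562109-119432924 on the + strand and held 96 liver-only regions of the class, with 3546 tags in sum. In all it had 160 liver regions, 0 heart regions, 4 kidney regions and 0 lung regions, and the covered share of its span was 68.0% in the liver, 0% in the heart, 0.425% in the kidney and 0% in the lung. The 96 regions covered 26.1% of the span. They ranged from 754 to 9391 bp, with a median of 1732 bp, and from 10.2 to 155.0 tags, with a median of 26 tags.

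Along Dpyd the regions were unevenly placed. In the first 150 kb from the 5′ end no region of the class was found, and the longest liver region of the gene, 133 kb, lay there. The numbers then ran 11, 28, 22, 23 and 12 in successive windows of 150 kb, and their summed tags 587.0, 1277, 843.1, 588.6 and 250.2. Tags per kb changed little, with a median of 15.7 in the first of these windows and 14.8 in the last. The gene had 10 liver regions of at least 10 kb, 2 with their midpoint in the first window and 8 farther on, the last at 636 kb. Of the 96 liver-only regions, 63 had their midpoint before that of the last long region and 33 beyond it, so both kinds were interspersed over most of the gene.

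Camk1d came next with 46. It encodes a calcium- and calmodulin-dependent protein kinase and spans 421 kb at chr2:5293457-5714860 on the - strand. It had 104 regions in the liver, 4 in the heart, 2 in the kidney and 7 in the lung, and 36.3%, 0.967%, 0.509% and 0.879% of its span lay inside them. Of its liver regions, 51 were liver-only but too short and 2 too long for the class, and 5 overlapped another organ. Camk1d thus had few and short regions outside the liver, as the map of the gene shows.

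The next genes had more polymerase elsewhere. Gphn, which encodes gephyrin, an enzyme of molybdenum cofactor synthesis that also anchors receptors at inhibitory synapses, held 31 liver-only regions. Its covered share was 37.8% in the liver, 1.05% in the heart, 6.79% in the kidney and 2.25% in the lung. Fbxl17, which encodes a substrate receptor of a ubiquitin ligase, held 28, with 29.1%, 1.43%, 6.50% and 1.77% covered. In both, every other organ was well below the liver but the kidney was not empty.

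Ptprd, a receptor protein tyrosine phosphatase gene of 2271 kb, held 27 liver-only regions among 89 liver regions. It had 2 heart regions, 55 kidney regions and 5 lung regions, and its covered share was 8.69% in the liver, 0.0440% in the heart, 6.00% in the kidney and 0.116% in the lung. It also held 4 kidney-only regions of the same class. Liver and kidney thus both had sparse regions in this very long gene, at partly different places.

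Sox5, a transcription factor gene of the SRY-box family, held 21 liver-only regions, and 12.3% of it was covered in the liver, against 0.157% in the heart, 0.811% in the kidney and 1.88% in the lung. Acaca, which encodes acetyl-CoA carboxylase, the rate-limiting enzyme of fatty acid synthesis, held 19. Its covered share was 45.0% in the liver, 0% in the heart, 5.62% in the kidney and 3.72% in the lung. The gene Gm11437 lies inside Acaca on the other strand and its 4 liver-only regions were counted for both genes.

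Snd1, whose product is a nuclease of RNA silencing and splicing, held 18, with 32.9% covered in the liver, 2.62% in the heart, 3.70% in the kidney and 7.16% in the lung. Chn2, a GTPase-activating protein gene, held 17, with 52.8%, 2.83%, 9.71% and 8.52% covered. B3galt1, a galactosyltransferase gene, held 16, with 15.2% covered in the liver, 0% in the heart, 0.0897% in the kidney and 0% in the lung. Thrb, the thyroid hormone receptor beta gene, also held 16, with 53.6%, 10.3%, 15.6% and 7.36%. All of these genes had a larger covered share in the liver than in the other 3 organs, but only Dpyd, Camk1d and B3galt1 among them stayed under 1% in each of those organs.

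**Figure D1:**
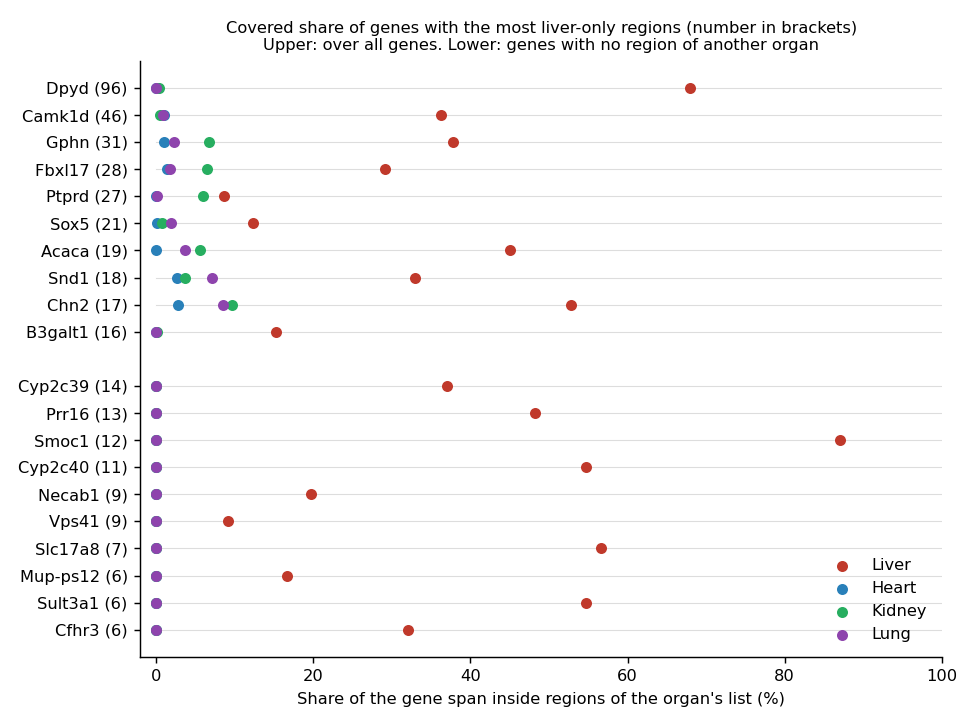
Percent of the gene span inside called regions of each organ, for the 10 genes with the most liver-only regions (upper) and the 10 with the most among genes without any region of another organ (lower); the number of liver-only regions is in brackets. Liver points lie to the right of the other 3 organs in every gene shown, from 8.69% in Ptprd to 87.1% in Smoc1. In the lower genes this order is fixed by the choice, and in the upper genes the choice favours it.

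Long genes have more room for regions, and the count followed gene length. Genes with a liver-only region had a median span of 60.8 kb, and those with 3 or more 106 kb, against 23.0 kb for all genes with a liver region and 17.3 kb for all genes. The share of genes with at least 1 was 1.42% below 10 kb, 7.29% at 10 to 30 kb, 17.7% at 30 to 100 kb, 27.5% at 100 to 300 kb and 39.2% above that. Per 100 kb of gene the order was another. Ces2e, a carboxylesterase gene of 8.41 kb, led with 35.7 per 100 kb (3 regions), followed by Rbm12b1, which encodes an RNA-binding protein, with 30.1 (3 regions), and Tfpi2, which encodes a serine protease inhibitor, with 26.5 (7 regions). Pglyrp2, a peptidoglycan amidase gene, had 25.5, Cox7a2l, whose product assembles respiratory supercomplexes, 24.2, Cyp2c40 24.0, F13b, which encodes the B chain of coagulation factor XIII, 22.5, Pla2g12b, a gene of lipoprotein secretion, 21.6, and Sult3a1, a sulfotransferase gene, 21.1. Ces2e, Rbm12b1, Pglyrp2, Cyp2c40 and Sult3a1 had no region in the other organs. Cox7a2l, in contrast, had 7.72% of its span covered in the heart, 21.6% in the kidney and 10.6% in the lung, beside 48.9% in the liver.

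The regions with the highest tag counts differed from the typical ones. The highest, 585.0 tags over 7.84 kb at chr11:108391477-108399318, contained the start of Apoh shown above. Gys2, which encodes the liver form of glycogen synthase, followed with 412.5 tags over 8.65 kb, and Ust, a uronyl sulfotransferase gene, with 373.2 over 9.63 kb. Kcnt2, a potassium channel gene, had 316.6, Nipal1, a magnesium transporter gene, 308.6, Inhba, which encodes the beta A subunit of activin, 295.4, Hsd3b5, a steroid dehydrogenase gene of mouse liver, 271.5, and Dnah8, an axonemal dynein gene, 269.7. In Apoh, Nipal1, Inhba and Hsd3b5 the region held an annotated start. The Hsd3b5 region also had the highest score, 52.5, followed by regions that overlap Smok3a (46.5), Rbm12b1 (44.5), Tmtc2 (38.5) and Mup22 (37.5). The Hsd3b5, Smok3a and Mup22 regions (7.80, 2.15 and 1.23 kb) lay mostly outside the gene and covered 7.21%, 3.47% and 4.44% of its span. The Rbm12b1 and Tmtc2 regions lay inside the gene. Apoh had 75.3% of its span covered in the liver and no region in the other organs, whereas Hsd3b5 had 75.3% in the liver, 0% in the heart, 20.1% in the kidney and 0% in the lung.

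In Ust and Inhba the liver regions stood alone. Ust spans 314 kb and had 4 liver regions, 2 of them of this class, that covered 3.64% of it, and no region in the heart, the kidney or the lung. Inhba spans 27.4 kb and also had 4 liver regions, which covered 45.3%, and none in the other organs. Slc30a10, which encodes a manganese exporter, had 2 regions that covered 90.0% of its 13.9 kb, and Il1rn, which encodes the interleukin-1 receptor antagonist, had 3 liver-only regions of the class that covered 63.6% of 14.6 kb. Neither of these genes had a region in another organ, and both were chosen for mention after their values were seen.

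Most genes that held a liver-only region had polymerase elsewhere in their span in other organs. Of the 2206 genes, 1393 (63.1%) had regions in all 3 other organs, 344 (15.6%) in 2, 219 (9.93%) in 1 and 250 (11.3%) in none. Over the 12414 genes with any liver region the shares were 78.2%, 11.4%, 6.67% and, for none, 3.71%. Where 1 other organ had a region, it was the kidney in 107 genes, the lung in 65 and the heart in 47. The median covered share of the 2206 genes was 25.4% in the liver, 3.11% in the heart, 7.5% in the kidney and 4.47% in the lung. In the 184 genes with 5 or more liver-only regions it was 39.3% in the liver, 1.80% in the heart, 4.96% in the kidney and 2.38% in the lung. The rule required liver regions without counterparts, so a higher covered share in the liver follows in part from the choice.

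The same genes also held regions that only another organ had. By the same length and overlap rule, heart-only regions lay in 358 of the 2206 genes (16.2%, against 9.38% of all genes), kidney-only regions in 500 (22.7%, against 11.7%) and lung-only regions in 432 (19.6%, against 11% of all genes). In 60 genes (2.72%, against 1.01% of all genes) all 3 kinds were present. In 1269 (57.5%) none was, a share not computed over all genes. The 2206 genes were also longer, with a median span of 60.8 kb against 17.3 kb of all genes, and the part of length was not tested. Rora, a nuclear receptor gene, held 9 liver-only, 20 heart-only, 1 kidney-only and 3 lung-only regions. Esrrg, another nuclear receptor gene, held 3 liver-only, 6 heart-only, 26 kidney-only and 1 lung-only region. Rora and Esrrg thus held regions of all 4 organs at different places.

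Among the 250 genes with no region in another organ, Cyp2c39 had the most, 14, followed by Prr16, whose product is linked to cell size, with 13, and Smoc1, which encodes a secreted calcium-binding matrix protein, with 12. Smoc1 had 87.1% of its 160 kb covered in the liver, Prr16 48.2% of 187 kb, and Cyp2c39 37.0% of 222 kb. Cyp2c40 held 11 and had 54.7% covered. Necab1, which encodes a neuronal calcium-binding protein, held 9 with 19.7% covered, and Slc17a8, a vesicular glutamate transporter gene, held 7 with 56.6% covered. Mup-ps12 of the major urinary protein cluster, Sult3a1, and Cfhr3, a gene of the complement system, held 6 each.

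Vps41, which encodes a subunit of the HOPS complex that tethers endosomes to lysosomes in most cell types, held 9 liver-only regions. It had 15 liver regions and none in the heart, the kidney or the lung, and 9.15% of its 150 kb was covered in the liver. The region at its start, chr13:18716612-18719151, had 53.3 tags. Vps41 was thus called in the liver list alone.

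The Cyp2c cluster showed liver-only regions over neighbouring genes. These genes encode cytochrome P450 enzymes that oxidise drugs and fatty acids. In 1180 kb at chr19:39006940-40187286, which hold 14 Cyp2c genes, 8 genes held a liver-only region of the class and 42 such regions were found. The cluster had 116 liver regions, 0 heart regions, 2 kidney regions and 0 lung regions. Cyp2c29, Cyp2c37 and Cyp2c70 were each covered to 100% by 1 long liver region and so held none of the class, while Cyp2c65 and Cyp2c66 had no liver region at all. Between these extremes, Cyp2c40 held 11 regions, Cyp2c38 and Cyp2c69 held 5 each, Cyp2c50 4, Cyp2c67 and Cyp2c68 3 each and Cyp2c54 2. The annotated span of Cyp2c39 includes that of Cyp2c38, so the 5 regions of Cyp2c38 also count among the 14 of Cyp2c39. Cyp2c genes are near-identical in places, as are the Mup, Ces2, Cyp3a and Sult genes, and the sources used here do not say how tags that fit several copies were placed, so the share of each copy is uncertain.

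Along genes the liver-only regions lay away from the 5′ end more often than shared ones. Over 3794 pairs of a region and a gene with known strand, the midpoint lay at a median of 55.1% of the span from the 5′ end (quartiles 29.3% and 78.2%), or 42.3 kb, against 36.4% and 16.1 kb for 16935 pairs of shared regions. These pairs include midpoints outside the span, which were 3.61% of the liver-only and 14.4% of the shared pairs. The first 10% of the span held 7.2% of the liver-only and 18.4% of the shared pairs. In genes of at least 100 kb the medians were 54.2% and 40.7%, and 1.65% of the liver-only and 11.3% of the shared midpoints lay under 5 kb from the 5′ end. Over genes of any length, with midpoints at least 5 kb from the 5′ end, the medians were 58.5% and 55.2%, a cut that in short genes leaves only the 3′ portion.

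**Figure D2:**
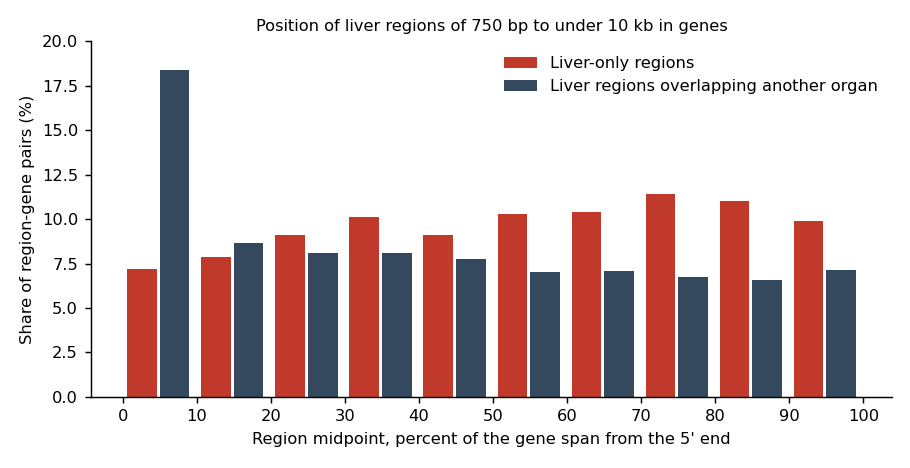
Share of region-gene pairs, in percent, by the position of the region midpoint along the gene in 10 equal bins of its span, for liver-only regions (red, left bars) and liver regions that overlap another organ (dark, right bars), both of 750 bp to under 10 kb. The first bin held 7.2% of the liver-only and 18.4% of the shared pairs, and the other bins differed less. Shares are of all pairs, and midpoints outside the span (3.61% and 14.4%) are not drawn.

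In genes that also had a long liver region, the long one tended to come first. Of 231 genes with 3 or more liver-only regions, a liver region of at least 10 kb and a known strand, the liver-only regions had the median position farther from the 5′ end in 171 (74.0%). The median position over these genes was 58.4% of the span for the liver-only and 28.3% for the long regions. A long liver region was present in 902 of the 2206 genes (40.9%) and in 300 of the 490 with 3 or more (61.2%), against 40.7% of all genes with a liver region.

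Starts were rare among the liver-only regions. Of all 4688, 119 (2.54%, 95% Clopper-Pearson interval 2.11% to 3.03%) overlapped an annotated start, against 3943 of 19199 shared regions (20.5%). Over the regions in genes with a known start the shares were 3.18% and 24.9%. Longer regions met a start more often in both sets: from 5 to under 10 kb, 11% of the liver-only and 38.6% of the shared regions did, and from 750 bp to under 1 kb 1.69% and 5.72%.

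The starts in question belonged to 119 genes, of which 68 had no region of another organ anywhere. They made up 0.689% of the 17273 genes with a known start. By name, in families picked after the values were seen, they were 7 of 84 Cyp genes with a known start, 3 of 6 Ces2 carboxylesterase genes, 4 of 16 Mup genes (among them Mup-ps12 and Mup-ps16), 2 of 22 Slc22a transporter genes and 7 of 333 Zfp zinc finger genes. Ces2a had a region of 258.2 tags at its start, Ces2e 81.5 and Ces2g 44.9. Cyp2c39 had 75.8 tags in the region at the start shown above, most of which lay upstream of the gene. Ren1 had 152.6 tags in a region of 6333 bp at chr1:133344583-133350916. That region overlapped the start but lay mostly upstream of the gene. Over all liver regions 83.1% of Ren1 was covered, against 0% in the heart, 11.8% in the kidney and 5.18% in the lung. The kidney, known as the main source of renin, thus had called regions in Ren1. The rule excludes any kidney region that overlaps the liver-only one.

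In 6 of the 376 genes with a liver-only region and several annotated starts, 1 start lay in such a region and another start in a region of another organ. In Dmd, the only heart region at a start lay at the upstream one, and the liver-only region, with 61.8 tags, at the downstream one. Dmd had 3 regions in the liver, 50 in the heart and none in the kidney or the lung, and 0.164% and 1.89% of its 2390 kb were covered in liver and heart. In Dpy30 the liver-only region at the upstream start had 24.9 tags, and liver, kidney and lung all had regions at the downstream starts. Tfpi2 had a liver-only region with 30.7 tags at its downstream start and regions of liver and kidney at the upstream one. Cmah, which encodes the hydroxylase that makes N-glycolylneuraminic acid, had one with 102.0 tags at its downstream start, again with liver and kidney at the upstream one. Asb4, a ubiquitin ligase adaptor gene, had one with 22.9 tags, with liver and lung at the upstream start, and the last of the 6 was 1700001C19Rik. In all but Dmd the liver also had a region at the other start.

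Over whole genes, polymerase at a start was less common in every organ than over all genes with a liver region. Of the 1750 genes with a liver-only region and a known start, 74.0% had a liver region at a start. A heart region was there in 46.6%, a kidney region in 56.5% and a lung region in 46.4%. Over all genes with a liver region and a known start the shares were 80.9%, 64.7%, 75.2% and 65.4%. In 260 of the 1750 genes (14.9%) a start had a region in the liver and in no other organ. Over all genes with a liver region and a known start it was 6.28%. Regions at a start in all 4 organs were found in 33.0%, against 49.4%. Among the 383 genes with 3 or more liver-only regions, a start was occupied in the liver and in no other organ in 20.4%. In 119 genes a start lay in a liver-only region, where the rule excludes other organs. The shares for the liver alone thus follow in part from the choice.

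Gene lists of liver function were unevenly represented, beside 10.2% of all genes and 17.8% of genes with a liver region. Cytochrome P450 genes had the largest share among the metabolic lists, with 19 of 50 (38.0%), and 14 of the 19 had no region in another organ. Of the glucose and glycogen genes 9 of 30 held a liver-only region, among them Gys2 with 5, Pfkfb1, a gene of the enzyme that sets fructose bisphosphate levels, with 5, and Pygl, liver glycogen phosphorylase, with 3. Complement and coagulation genes had 13 of 44, among them F13b at 5 and Masp1, a protease of the lectin pathway, at 4. Apolipoprotein and lipid export genes had 7 of 25, among them Abca1, the cholesterol exporter, at 7 and Lipc, hepatic lipase, at 3. The counts are of chosen lists and were not tested.

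Transcription factors of the liver were represented by 15 of 57 genes, led by Thrb with 16 and Tox with 12, and all 15 also had regions in another organ. In Tox the covered share was 26.8% in the liver, 0.223% in the heart, 2.55% in the kidney and 0.491% in the lung. Esr1, the estrogen receptor alpha gene, held 3, with 7.64% covered in the liver, 0% in the heart, 0.342% in the kidney and 0.00610% in the lung. Onecut2, a hepatic homeobox gene, held 3, with 95.1%, 0%, 0.855% and 0% covered. Zbtb20 held 7 among 103 liver regions, 78 of them shared, and was covered to 63.8% in the liver, 47.5% in the heart, 45.9% in the kidney and 12.4% in the lung. The list thus ranged from genes bound mainly in the liver to genes bound in every organ.

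Sterol and fatty acid genes had 8 of 46, led by Acaca, with Elovl6, a fatty acid elongase gene, at 4 and Scap, the sterol sensor of SREBP processing, at 2. In Elovl6 the covered share was 63.5% in the liver, 0.471% in the heart, 54.3% in the kidney and 1.41% in the lung. Conjugation and transport genes had 7 of 45, with the organic anion transporter gene Slco1a4 at 5. Urea cycle and amino acid genes had 6 of 40, with Slc25a13, the mitochondrial aspartate-glutamate carrier, at 9 and Otc, ornithine transcarbamylase, at 4. Growth factor and receptor genes had 11 of 42, with Il1r1, an interleukin-1 receptor gene, and Sorbs2, a cytoskeletal adaptor gene, at 5 each. All these lists were above 10.2%, and their median gene spans, from 22.0 to 95.2 kb, were above the 17.3 kb of all genes. Nearly all their genes had a liver region, however, and of all genes with one 17.8% held a liver-only region. Beside that share the sterol (17.4%), conjugation (15.6%) and urea cycle (15.0%) lists were not higher, whereas the growth factor list had 26.8% of its genes with a liver region. The growth factor list was also the one with the median span of 95.2 kb, against 23.0 kb for all genes with a liver region. The part of length was not tested.

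Genes of secreted hepatocyte proteins had a low share, 3 of 42 (7.14%). Their median covered share in the liver was 100% and 40 of the 42 held a liver region of at least 10 kb, so most of their liver signal lay in regions too long for the class. Apcs, the serum amyloid P gene, and Ces1c, a plasma carboxylesterase gene, held 1 each. Neuronal adhesion and synapse genes had 12 of 26 (46.2%), and 14 of the 26 had any liver region. Their median span was 1359 kb, and genes above 300 kb as a whole had 39.2%. After Ptprd, Immp2l, a mitochondrial peptidase gene that the list also holds, held 12 and Nrg1, the neuregulin 1 gene, 2. Their covered share in the liver was 6.68% and 0.477%.

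Lists of other liver cell types held few such genes. Sinusoidal endothelial genes had 3 of 20 (15.0%), or 18.8% of the 16 with a liver region, beside 17.8% of all genes with one. They were led by Stab2, a scavenger receptor of these cells, with 8 regions and 38.0% covered in the liver, 0.430% in the heart, 1.25% in the kidney and 0.599% in the lung. Dnase1l3, a secreted nuclease gene, held 4. Kupffer and immune genes had 1 of 25 (Fcna, a ficolin gene, with 2), cholangiocyte genes 1 of 19 (Sctr, the secretin receptor gene, with 1) and stellate and mesenchymal genes 0 of 22. The lists of cardiomyocyte, proximal tubule and lung epithelium genes had 0 of 25, 0 of 24 and 0 of 20. A liver region of any kind was present in 10 Kupffer and immune, 8 cholangiocyte and 4 stellate and mesenchymal genes. Of the cardiomyocyte, proximal tubule and lung epithelium genes 8, 12 and 10 had one. Housekeeping genes had 1 of 20 (Tbp, which encodes the TATA-binding protein, with 3). Ribosomal protein and splicing genes had 1 of 21 (Sf3b1 with 1). All genes of both lists had a liver region, and the median spans were 6.64 and 5.18 kb. Of all genes below 10 kb, 1.42% held a liver-only region.

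**Figure D3:**
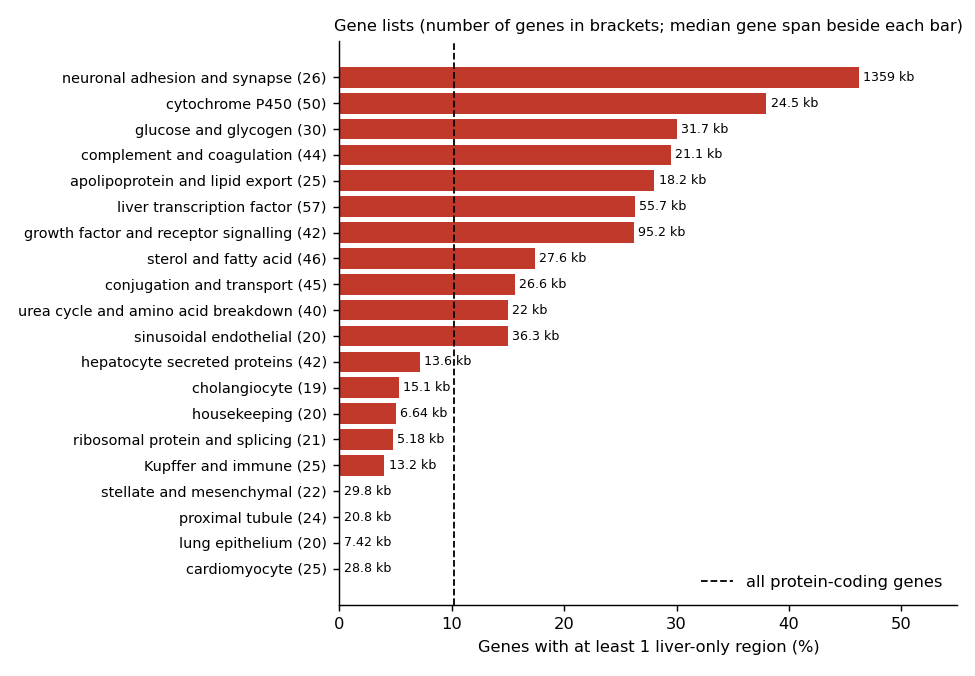
Percent of the genes of each list that held at least 1 liver-only region of 750 bp to under 10 kb, with the number of genes in brackets, the median gene span in kb beside each bar and the 10.2% of all protein-coding genes as a dashed line. Neuronal adhesion genes (46.2%, median span 1359 kb) and cytochrome P450 genes (38.0%, 24.5 kb) had the largest shares, and 4 lists of other cell types had none.

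The liver had the fewest such regions of the 4 organs but the largest share of its length class. The same rule gave 4688 regions in the liver and 5081 in the heart, or 19.6% and 17.7% of the regions of that length in genes. It gave 5724 in the kidney (17.8%) and 4985 in the lung (14.6%). The lists differed in size, with 61956 regions in the liver, 81887 in the heart, 88200 in the kidney and 101051 in the lung. With 61956 regions per list by tag count the liver had 6196, and the part of list size was not tested. A start was overlapped by 2.54% in the liver, 2.18% in the heart, 2.22% in the kidney and 2.15% in the lung, and another region of the organ lay within 2 kb of 69.4%, 71.3%, 73.1% and 65.8%. The median position was 55.1% of the span in the liver, 51.0% in the heart, 51.7% in the kidney and 50.2% in the lung. Genes with no region of another organ made up 11.3% in the liver, 9.41% in the heart, 9.55% in the kidney and 7.92% in the lung. A low share of starts and a median position past the middle of the gene were thus found in every organ by this rule.

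The genes that led differed by organ. After Dpyd with 96 in the liver, the leading genes were Fhod3, a sarcomere formin gene, with 50 in the heart, Pkhd1, the gene of fibrocystin, with 49 in the kidney and Atp8a1, a phospholipid flippase gene, with 34 in the lung. Genes with 10 or more numbered 35 in the liver, 82 in the heart, 68 in the kidney and 57 in the lung. The liver thus had the single gene with the most regions but the fewest genes with many.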

How the data were processed

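Per the labels' protocols, chromatin of 4 organs was precipitated with a Pol II antibody, tagmented with Tn5 and sequenced as pairs of 50-base reads. Bowtie2 2.2.8, HOMER 4.8 and the mm10 build are named, with no order, per the submitters' processing notes. Per the file headers, the authors ran findPeaks in its histone mode, with windows of 500 bp, a Poisson p-value threshold of 0.001 and a fragment length of 78 bp. As signal the authors deposited tags per region, scaled to 10000000 per list. The deposited score is findPeaks' own, and a deposited ratio (clonal fold change) was not used. The command in the headers names no control library. Region lengths are those the authors deposited.

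Overlaps of at least 1 bp were computed with Python 3.11.15, pandas 2.3.3, numpy 2.4.6 and scipy 1.17.1, and plotted with matplotlib 3.10.9. Interval code was checked on 2000 simulated queries, of which 100% equalled counts from comparing every query with every interval. Gene spans came from a RefSeq table of GRCm38.p6. Strand and starts came from a RefSeq promoter table that holds 17273 of the 21627 genes, so gene ends and starts were placed for those only. The covered share is the percent of a gene's span, introns included, inside regions of an organ. All 627 distinct symbols of the 20 gene lists matched, 625 directly and 2 through a synonym. Genes were named by rank: the 10 with the most regions, the 10 with the most per 100 kb, the 10 with the most among genes without another organ, the 8 highest by tag count, the 5 highest by score, and the leading genes of each list. Some genes that this rule names are not reported here. Other genes were chosen after their values were seen, among them those of the promoters shown. The members, lists and rule were chosen with earlier results of these data known. Replicate labels do not exist beyond 1 list per organ, so no test across samples was run. Alternatives changed the length limits, the distance to other organs' regions, the score, the number of regions per list and the gene assignment.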

Additional observations from a re-analysis of the deposited data

How the results depend on the processing

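Over 8 alternatives, 40 values were recomputed: 21 stayed within 1.5 times the reported count or within the reported share's 95% binomial interval, and 19 did not. Dpyd held the most regions in all 9 settings. With 500 bp to under 10 kb as the length class there were 11978 regions, 1356 genes with 3 or more, 8.40% of genes without another organ, 1.38% of regions at a start and 61.2% within 2 kb of another liver region. With 1 kb to under 10 kb, 320 genes held 3 or more and 71.1% lay within 2 kb. Keeping the liver regions in the upper 50% by score left 2532 regions and 214 genes with 3 or more. Requiring a distance of 1 kb from other organs' regions gave 14.8% of genes without another organ and 67.0% within 2 kb. With 61956 regions per list, these values were 13.9% and 71.0%. Keeping regions wholly inside 1 gene gave 8.58% of genes without another organ and 0.530% at a start. A score reaching the heart's threshold of 9.11, a setting chosen after seeing the data, left 625 regions and 20 genes with 3 or more, with 14.7% of genes without another organ and 4.32% at a start. That setting is a cut on the score, which in longer regions did not follow tag density. The cause of these shifts was not tested beyond what each setting removes or adds. No paired analysis was possible because each organ has 1 list. Depth limits what is called: the liver list has the most tags, and with 1 list per organ neither the variation between mice nor between libraries is known.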

Other observations

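The share of liver regions of this length in genes that no other organ shared varied by chromosome, from 12.6% on chromosomes 7 and 11 to 29.2% on chromosome X. Of the genes whose start lay in a liver-only region, Tert, the telomerase reverse transcriptase gene, had 1 such region with 31.2 tags that covered 1.80% of the gene, no other liver region, and 7.26% covered in the kidney. It was chosen for mention after its values were seen.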
